A study of Mus musculus with 52 samples.

Results

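The cytosolic ribosomal protein genes of the mouse were followed through 3 region sets that a chromatin immunoprecipitation (ChIP-seq) study of histone H3 lysine 27 used to measure its signal. Members were the protein-coding genes whose symbol begins with Rpl (large subunit) or Rps (small subunit), continues with digits and ends in at most 1 letter. Rps6k kinases and pseudogenes were left out. This gave 77 genes of the 23745 named genes in the authors' non-redundant gene table, 47 of the large subunit and 30 of the small subunit. They occupied 81 rows of that table, since 4 genes (Rpl26, Rpl30, Rpl34 and Rps27) had a second interval. The 5 paralogs with a symbol ending in l (Rpl3l, Rpl10l, Rpl32l, Rpl39l and Rps27l) were included.

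The study compared feeder-free mouse embryonic stem cells (mESCs), grown with LIF and 2 kinase inhibitors (2i), and epiblast-like cells (EpiLCs), derived from them over 48 hours, in 52 libraries (43 and 9) that form 34 groups. The genotypes were the control line ABE, the mutant cK27R, in which lysine 27 is replaced in canonical H3 alone, and pK27R, in which it is replaced in all H3. Each of these mutants was represented by 2 clones, and for the H3.3 antibody pK27R is labelled as a knockout with mutant H3.3 added back. SUZ12KO, H3-3KO and knockout cells with wild-type H3.3 added back (pK27WT, 2 clones) completed the set, and all lines had a mixed C57BL6/129Sv background. Antibodies were against H3K27me2, H3K27me3, H3K27ac (a rabbit and a mouse antibody), RNA polymerase II, Med1 and H3.3, with 4 inputs. The tables analysed here carry coordinates and 0 columns with a value per library. Depth is therefore unknown, ChIP signal at the ribosomal protein genes in any genotype was not analysed here, and no replicate error can be attached to the counts below.

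The cytosolic ribosome joins a small subunit, which decodes mRNA, to a large subunit, which forms peptide bonds. Its proteins are made in near-equal amounts from genes scattered over the genome, and these genes are among the most strongly transcribed of growing cells. Many of their mRNAs begin with a C followed by an unbroken run of pyrimidines, the terminal oligopyrimidine (TOP) motif through which mTOR signalling controls their translation, and many host small nucleolar RNAs (snoRNAs) in their introns.

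Promoter sequences are shown for members with the most or the widest regions in the 2 enhancer tables and, for contrast, for Rpl14 and Rpl15, whose start no EpiLC region covered. Each runs 5′ to 3′ on the gene's strand from 60 bases before to 20 bases after the RefSeq start (GRCm38.p6, the build mm10). Capitals mark the longest run of C and T that touches the 5 bases on either side of that start. The length of this run differed among them. Rpl35, Rpl15, Rpl13a, Rpl14, Rpl4 and Rps10 had long runs of 18, 17, 14, 14, 14 and 13 bases. The runs of Rps19, Rps28, Rps4x and Rpl11 had 4, 4, 3 and 2 bases. Long runs thus occurred at covered members as well as at the uncovered Rpl14 and Rpl15. Rpl14 and Rpl15 had the longest runs of the 10 uncovered members with a RefSeq promoter sequence. The median run of those 10 was 8 bases, from 2 to 17.
Rps19 promoter (chr7:24884616-24884695, plus strand): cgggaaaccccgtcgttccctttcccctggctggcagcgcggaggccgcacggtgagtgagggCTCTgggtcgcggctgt
Rpl11 promoter (chr4:136053374-136053453, minus strand): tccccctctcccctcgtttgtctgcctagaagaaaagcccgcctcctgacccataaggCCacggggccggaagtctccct
Rpl19 promoter (chr11:98026650-98026729, plus strand): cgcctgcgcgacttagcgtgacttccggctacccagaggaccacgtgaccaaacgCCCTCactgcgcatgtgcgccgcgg
Rpl35 promoter (chr2:39005112-39005191, minus strand): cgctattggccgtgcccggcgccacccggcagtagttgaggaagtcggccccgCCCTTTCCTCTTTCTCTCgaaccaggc
Rps10 promoter (chr17:27635225-27635304, minus strand): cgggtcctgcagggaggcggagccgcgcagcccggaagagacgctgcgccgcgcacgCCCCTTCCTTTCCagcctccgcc
Rpl4 promoter (chr9:64173327-64173406, plus strand): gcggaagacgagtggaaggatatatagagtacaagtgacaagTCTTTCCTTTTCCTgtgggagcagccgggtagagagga
Rps21 promoter (chr2:180257319-180257398, plus strand): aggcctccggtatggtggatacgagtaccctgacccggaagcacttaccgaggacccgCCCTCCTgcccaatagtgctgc
Rps4x promoter (chrX:102189372-102189451, minus strand): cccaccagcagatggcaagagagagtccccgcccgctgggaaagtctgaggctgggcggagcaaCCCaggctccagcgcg
Rps28 promoter (chr17:33824543-33824622, minus strand): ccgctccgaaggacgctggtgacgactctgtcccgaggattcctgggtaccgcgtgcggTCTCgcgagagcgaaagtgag
Rpl13a promoter (chr7:45128726-45128805, minus strand): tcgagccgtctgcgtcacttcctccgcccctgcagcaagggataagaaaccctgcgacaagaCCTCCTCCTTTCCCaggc
Rpl14 promoter (chr9:120571457-120571536, plus strand): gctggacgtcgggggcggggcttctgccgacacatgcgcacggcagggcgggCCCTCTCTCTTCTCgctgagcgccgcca
Rpl15 promoter (chr14:18270967-18271046, minus strand): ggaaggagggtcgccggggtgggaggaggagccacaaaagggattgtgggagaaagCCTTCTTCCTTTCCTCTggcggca

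A region of the EpiLC enhancer table lay over the transcription start site (TSS, the 5′ end of the gene interval) of 62 of the 77 ribosomal protein genes (80.5%). Over all 20199 protein-coding genes of the table this share was 14.8%. The share was 78.7% for the large subunit (37 of 47) and 83.3% for the small subunit (25 of 30), so both subunits were covered at a like rate. In the mESC enhancer table, no member TSS was covered, where 1.09% of protein-coding genes were. For 77 genes, a count of 0 is close to that share. The EpiLC table was defined elsewhere from H3K27ac, H3K4me1 and p300 peaks and the mESC table by another group, so a difference between cell states cannot be told apart from a difference in how the sets were made.

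The covering EpiLC regions were wide. Their median width was 4487.5 bp (quartiles 3512 and 6631 bp), against 2375 bp over the TSSs of the 2918 other covered protein-coding genes and 1750 bp over all 16576 EpiLC regions. Of the 61 distinct regions that covered a member, 60 were wider than the median of the table and 54 were wider than its upper quartile of 2900 bp. Among EpiLC regions wider than 8000 bp, 8 of 441 (1.81%) covered a member TSS, and among those of at most 1000 bp, 1 of 3682 (0.0272%) did. The same shares were not computed for other TSSs, so this contrast cannot be called particular to members. The widest (12075 bp) lay over Rpl13a, known outside the ribosome for repressing translation of inflammatory mRNAs.

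Other wide regions lay over Rps10 (9650 bp), Rps19 (9350 bp), Rpl23a (9200 bp) and Rps15a (8425 bp). Rps10 is a target of the ubiquitin ligase that marks collided ribosomes, and Rps19 is the gene most often mutated in Diamond-Blackfan anaemia. The narrowest lay over Rpl39l (825 bp), the testis-expressed relative of the exit-tunnel protein Rpl39. The next were over Rpl24 (2350 bp), mutated in the belly spot and tail mouse, Rpl29 (2375 bp), Rpl7 (2450 bp) and Rps27l (2525 bp), a p53 target. Rpl39l thus stood apart at the lower end, and the next narrowest region was close to the median of other covered genes. Small-subunit members had a median covering width of 5350 bp and large-subunit members one of 4200 bp, with overlapping quartile ranges (4200 to 7925 and 3450 to 5600 bp).

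The regions extended over the gene bodies rather than symmetrically around the TSS. They reached a median of 987 bp upstream of the TSS and 3388 bp downstream of it, and 57 of 62 (91.9%) reached further downstream. Other covered protein-coding genes reached a median of 1111 bp in each direction, and 50.9% of them reached further downstream. The 5 exceptions included Rps15a (5304 bp upstream and 3120 bp downstream), Rps21, Rps2 and the X-linked Rpl10. At Rpl27 and Rpl6 the region began only 18 and 74 bp upstream of the TSS, and at Rpl11 80 bp. Rpl11 binds Mdm2 together with Rpl5 when ribosome assembly fails.

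**Figure D1:**
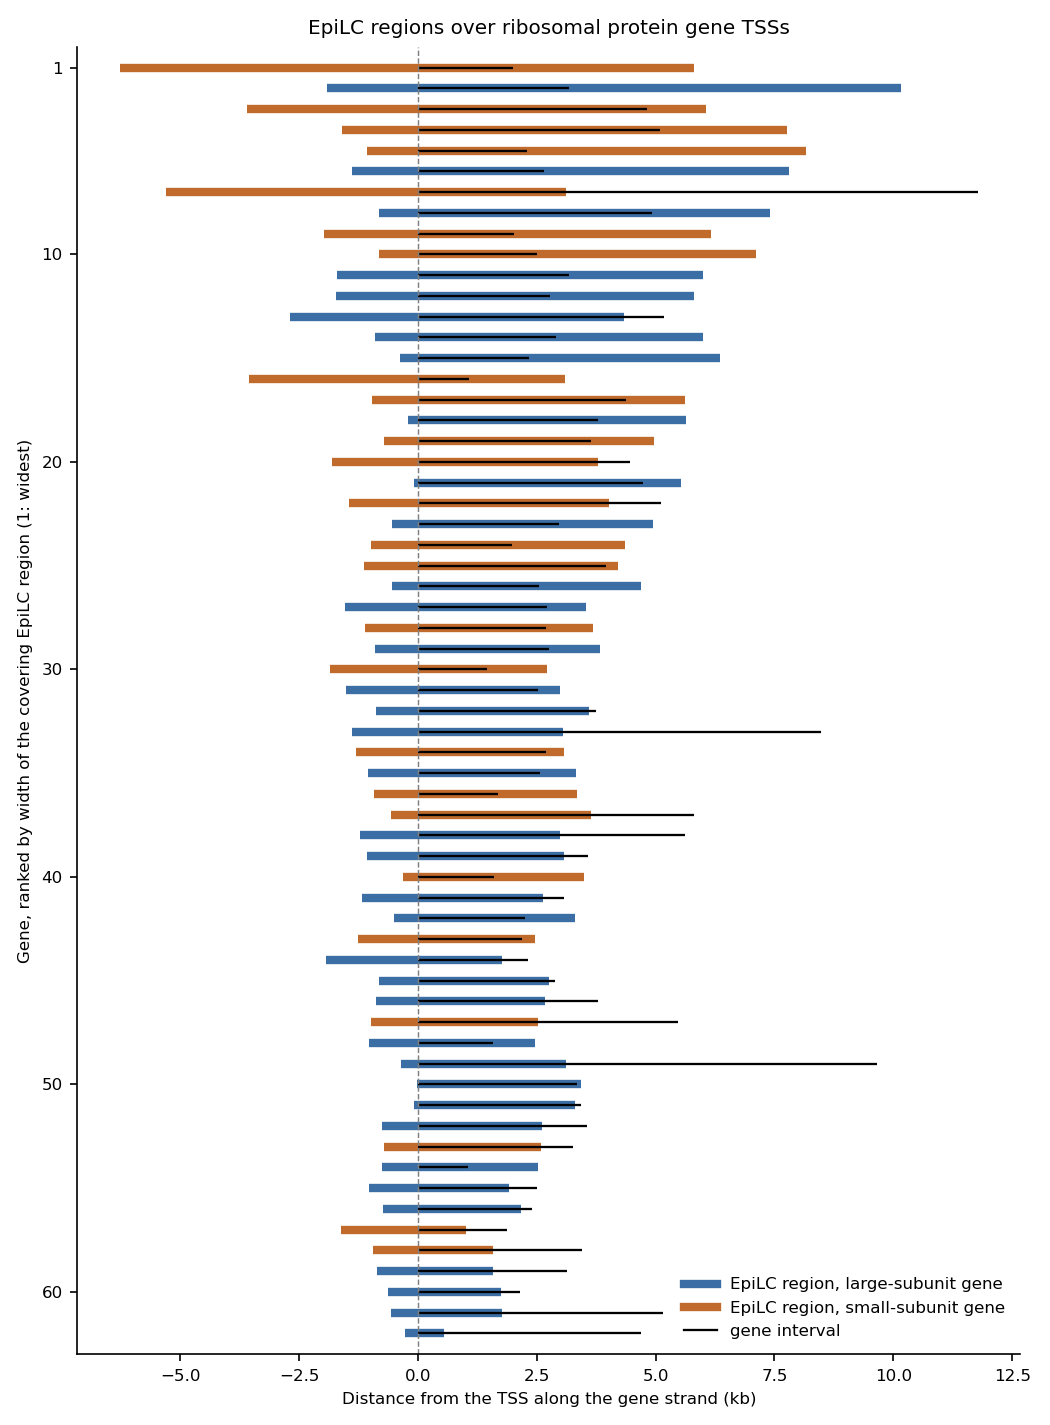
Extent of the EpiLC region that covers each of 62 ribosomal protein gene TSSs, in kb along the gene's strand (x axis), with genes ranked by region width (y axis, rank 1 the widest). Coloured bars are regions by subunit and black lines are gene intervals; most bars start near the TSS, run downstream over the gene, and in 36 genes pass its far end.

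Many ribosomal protein genes lay wholly within a region, and their intervals were short. The median member interval was 2969 bp, from 592 bp (Rpl32l) to 11772 bp (Rps15a), against 16920 bp for protein-coding genes. The next shortest were Rpl36 (852 bp) and Rps27 (982 bp), and the next longest Rpl22 (9647 bp) and Rpl5 (8478 bp). All bases of 36 members (46.8%) lay inside EpiLC regions, where 0.842% of protein-coding genes did. Summed over the 77 intervals, 173.8 of 260.0 kb (66.8%) lay inside EpiLC regions, against 1.95% of protein-coding interval bases. Among genes with intervals between the members' quartiles (2297 to 4060 bp), 33 of 39 members (84.6%) and 193 of 1347 other protein-coding genes (14.3%) had a covered TSS. In that length class 20 members (51.3%) and 25 other genes (1.86%) lay wholly inside, so the difference was also present among genes of like length. Across covered members, interval length and region width were nearly unrelated (Spearman's rho 0.07, 62 genes, a description across genes). Long members were covered in part: 26.51% of Rps15a, 32.30% of Rpl22 and 35.96% of Rpl5.

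Related gene lists, chosen for comparison, differed in their counts. Of 11 other cytosolic ribosomal proteins whose symbols fall outside the naming rule, 9 (81.8%) had a covered TSS, among them Rpsa (6050 bp), Rack1 (5675 bp) and Rplp1 (5475 bp). Rpl22l1 and Rpl36al were not covered. A list of 12 genes of the TOP class held mainly translation factors, besides Tpt1 and the histone chaperone Nap1l1. Of these 12, 5 (41.7%) were covered: the elongation factors Eef1a1 (7275 bp), Eef1b2 (2700 bp) and Eef2 (5550 bp), the initiation factor Eif4b (4900 bp) and Tpt1 (4025 bp). Of 20 ribosome assembly genes, 6 (30.0%) were covered, including the nucleolar proteins Npm1 (3975 bp) and Ncl (3225 bp). Of 78 mitochondrial ribosomal protein genes, which encode the ribosome of another compartment, 20 (25.6%) were covered, with a median width of 2088 bp. No mESC region covered a TSS in the first 3 of these lists, and 1 covered a mitochondrial ribosomal protein gene. For lists of these sizes, such counts are close to the 1.09% of protein-coding genes.

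**Figure D2:**
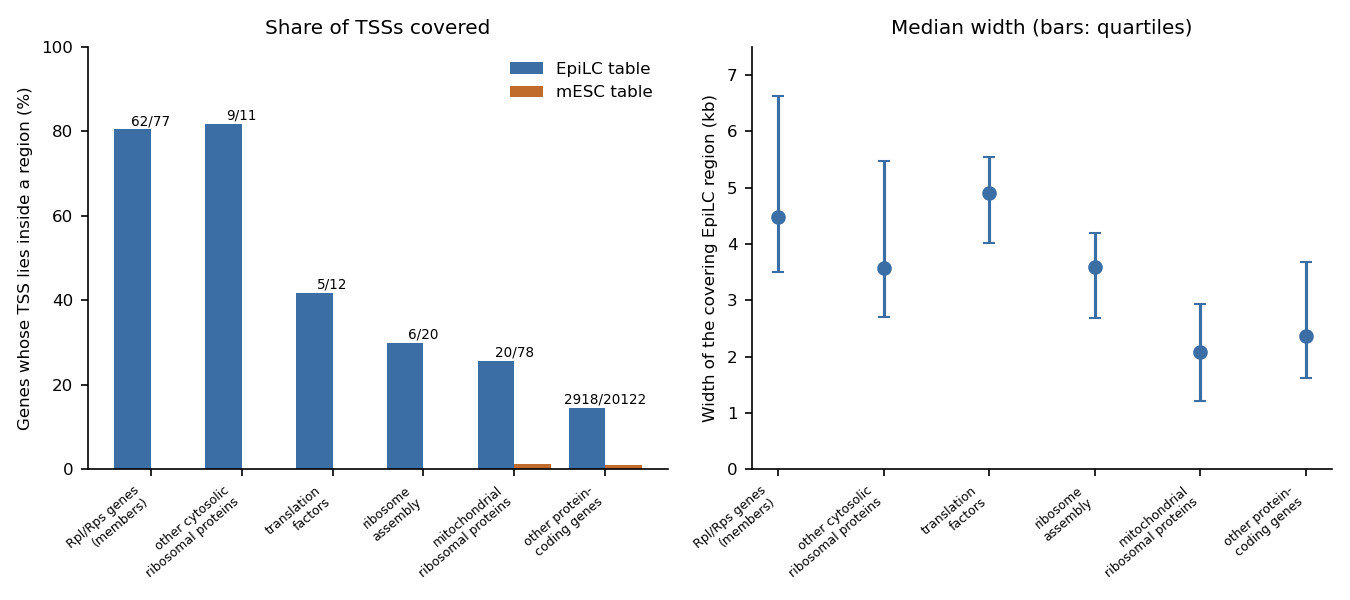
Left, the percentage of genes whose TSS lies inside an EpiLC or mESC region for the ribosomal protein genes, 4 related gene lists and the other protein-coding genes, with EpiLC counts above the bars. Right, median width of the covering EpiLC region in kb with quartiles as bars; the ribosomal protein genes sit at 62 of 77 covered and 4487.5 bp, the other protein-coding genes at 2918 of 20122 and 2375 bp.

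When each region was instead assigned to the gene with the TSS nearest its centre, if its edge lay within 50 kb of that TSS, 60 EpiLC regions were tied to 52 members (67.5%). The share was 32.2% over protein-coding genes. Of the 60 regions, 24 were centred within 1 kb of the TSS, at 24 members, and 12.5% of protein-coding genes had such a region. Another 24 covered the TSS with their centre further away, all but that of Rps15a on the downstream side, and 12 lay distal. The limit of 1 kb fell within a continuous series of distances: the centre at Rps4x, the X-linked small-subunit gene, lay 0.990 kb from the TSS, and that at Rps15a lay 1.09 kb away. Wide promoter-centred regions were those at Rpl4 (7025 bp), Rps21 (6650 bp), Rps4x (5600 bp) and Rps28 (4575 bp). Rpl4 lines the narrowest point of the peptide exit tunnel. The narrowest was a region of 325 bp beside Rpl38, whose protein is required for translation of Hox mRNAs. It ended short of the Rpl38 TSS, which a second region of 5850 bp covered.

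**Figure D3:**
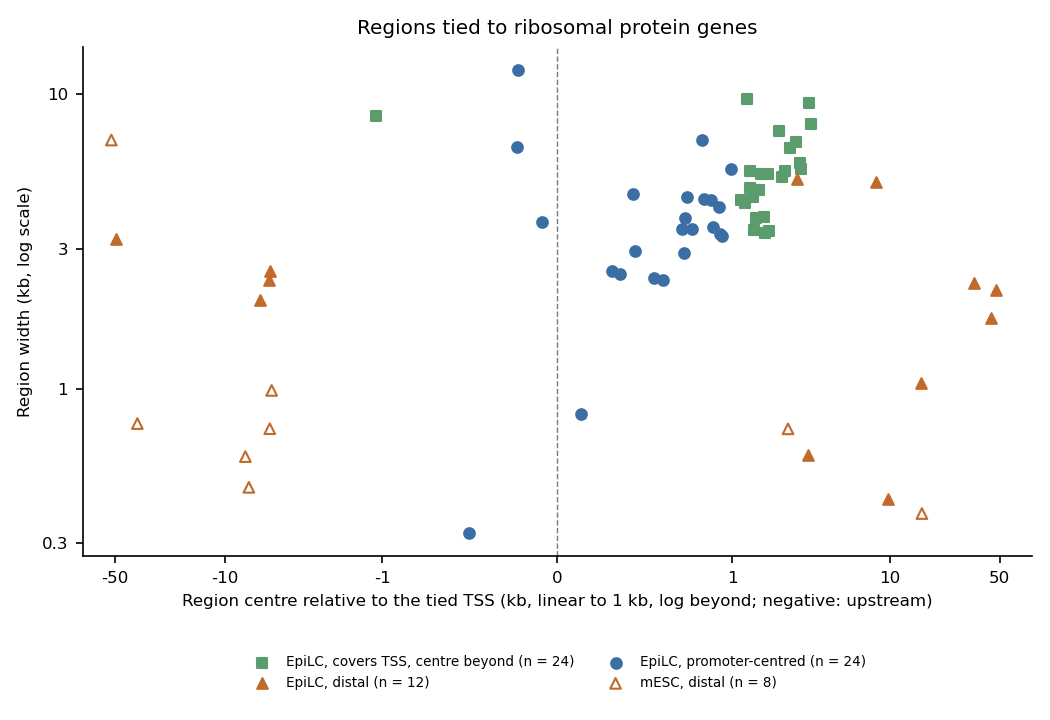
Each region tied to a ribosomal protein gene, by the distance of its centre from the TSS in kb (x axis, negative upstream, linear to 1 kb and logarithmic beyond) and its width in kb (y axis, log scale). Filled symbols are EpiLC regions (24 promoter-centred, 24 covering the TSS from further away, 12 distal) and open triangles are the 8 mESC regions; regions that cover a TSS sit mostly downstream of it and, apart from that of Rpl39l (825 bp), are wider than 7 of the 8 mESC regions.

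The tie to a nearest TSS left out 15 of the 62 covered members, since the region's centre was closer to another gene. For 11 of them that gene was a snoRNA, in 10 of 11 cases one within the member's own interval, among them Snora21 (Rpl23), Snora33 (Rps12), Snora65 (Rpl12), Snora3 (Rpl27a), Snord68 (Rpl13), Snord42a (Rpl23a), Snord43 (Rpl3) and Snord15a (Rps3), and beside Rps2 it was Snora78. Rps3 sits at the mRNA entry site of the small subunit, and Rpl3 beside the peptidyl transferase centre. For the remaining 4 it was a protein-coding gene, such as Zc3h10 (Rpl41), Clhc1 (Rps27a) and B3galt4 (Rps18). Altogether 27 members hosted 55 annotated snoRNAs, and 22 of these 27 had a covered TSS, near the share of all members (62 of 77, 80.5%). Of the 12 members with a divergent gene within 1 kb, 10 were covered, also near that share. Examples were Rpl9 (66 bp from Lias), Rpl18 (69 bp from Sphk2) and Rps28 (74 bp from Ndufa7). Rpl15 (150 bp from Nkiras1) and Rps27 (67 bp from Rab13) were not covered. Hosted snoRNAs and divergent genes were not counted for other protein-coding genes.

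No EpiLC region covered the TSS of 15 members. These included 3 of the 5 paralogs: Rpl10l, which takes the place of the X-linked Rpl10 in the male germ line, the striated-muscle paralog Rpl3l, and Rpl32l. The other 12 were Rpl14, Rpl15, Rpl21, Rpl31, Rpl32, Rpl36, Rpl39, Rps9, Rps16, Rps20, Rps27 and Rps29. The distance from the TSS to the nearest EpiLC region ranged from 1 bp at Rpl31 to 306.9 kb at Rpl10l. At Rpl31 a region of 5150 bp (chr1:39367852-39373001) held 99.98% of the interval and began 1 bp inside it, so that the call rests on whether starts in the table count from 0 or from 1. Rpl14 followed at 2.785 kb, with 11.22% of its interval inside a region, and Rpl39 was 266.9 kb away. Beyond Rpl31 and Rpl14, the remaining 13 uncovered members had no base inside an EpiLC region. Ribosomal protein genes have many processed pseudogenes, and RefSeq listed 306 under the names of members. Covered members had a median of 2.5 of these each (0 to 24) and uncovered members a median of 1.0 (0 to 24), with 24 for Rpl31, 15 for Rpl21 and 10 for Rpl36. The part of such copies in the calls was not tested.

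Distal EpiLC regions were tied to 11 members, with a median width of 2237.5 bp. The matching share of all protein-coding genes was not computed, so whether 11 is many or few is not known. Rpl19, Rpl35, Rps19, Rps21 and Rps24 each had a distal region in addition to one over the TSS. Those of Rpl19 (425 bp, 9.70 kb downstream) and Rps21 (2350 bp, 5.25 kb upstream) lay between genes, as did that of Rps24 (5025 bp, 8.23 kb downstream), while that of Rpl35 (600 bp) lay in an intron. Rpl23 (5.99 kb upstream) and Rps27a (49.0 kb upstream, in an intron of Gm12088) had a tied distal region, although the regions over their own TSSs were tied to a neighbour. For Rpl32l (34.4 kb downstream, in an intron of Map7) and Rps29 (15.8 kb downstream, in an exon of the noncoding Gm31447), the distal region was the only one tied to the gene. The region at Rpl31 was also among the 12. The nearest regions left out by the 50 kb limit included one 54.8 kb from the TSS of Rps27a.

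The mESC table tied 8 regions to 8 members (10.4%), where 19.0% of protein-coding genes had one. No member had an mESC region centred within 1 kb of its TSS, where 1.04% of protein-coding genes had one, and 2.98% of all mESC regions were centred so. For a set of this size, having none is close to the share of 1.04%. Of the 8 members, 7 were small-subunit genes (Rps13, Rps14, Rps19, Rps20, Rps23, Rps26 and Rps27a) and 1 was a large-subunit gene (Rpl11). Their regions had a median width of 734.5 bp (711 bp over all 8794 mESC regions). That of Rps23, which contacts the decoding centre, was the closest, with its centre 2.26 kb downstream of the TSS at chr13:90925016-90925749 and inside the EpiLC region over Rps23. Regions upstream of their gene included those of Rps19 (5.04 kb), Rps26 (5.18 kb, in an untranslated exon of Ikzf4) and Rps14 (7.40 kb, in an annotated intron of Rps14). Rps14 is the gene tied to the anaemia of the human 5q- syndrome. Further away were those of Rps20 (16.0 kb downstream), Rpl11 (35.9 kb upstream) and Rps27a, whose region of 6996 bp was the widest and lay 49.0 kb from the TSS at its edge. Rps27a encodes ubiquitin fused to a ribosomal protein. The nearest mESC region beyond the limit lay 56.5 kb from Rpl38.

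The central 200 bases of 2 mESC regions are shown on the forward strand: at Rps19, where the EpiLC table also had a region, and at Rps27a, the widest. Capitals mark the Sox letters ACAAAG on either strand.
Rps19 mESC region (chr7:24879579-24879778, plus strand): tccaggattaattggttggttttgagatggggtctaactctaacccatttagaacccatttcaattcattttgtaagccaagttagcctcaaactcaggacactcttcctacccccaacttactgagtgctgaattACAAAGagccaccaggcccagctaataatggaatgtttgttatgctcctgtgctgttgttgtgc
Rps27a mESC region (chr11:29600479-29600678, plus strand): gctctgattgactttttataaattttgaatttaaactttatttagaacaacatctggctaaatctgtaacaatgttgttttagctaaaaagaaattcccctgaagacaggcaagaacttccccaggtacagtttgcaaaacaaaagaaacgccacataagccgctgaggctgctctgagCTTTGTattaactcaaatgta

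In the central 300 bases, the Sox letters occurred in 6 of the 8 tied mESC regions and in 42.3% of all mESC regions. The Esrrb letters AAGGTCA occurred in 2 and in 12.0%, the Klf letters GGGTGTG in 1 and in 10.9%, and the octamer ATGCAAAT in none and in 8.78%. In the 60 tied EpiLC regions the counts were 20 for Sox (27.6% of all EpiLC regions), 5 for Esrrb (6.42%), 4 for Klf (7.74%) and 0 for the octamer (3.37%). A match describes letters and does not show binding.

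Few of the tied EpiLC regions were shared with the mESC table. Of the 60 tied EpiLC regions 3 (5.0%) overlapped an mESC region, against 25.9% of all EpiLC regions. Most of the 60 covered their nearest TSS, where 17.3% of all EpiLC regions did, and the part of this in the overlap was not tested. Of the 8 tied mESC regions 3 (37.5%) overlapped an EpiLC region, near the 42.9% of all mESC regions. The shared places were Rps19 (the upstream region), Rps23 and Rps27a. Within the pair at Rps19, the EpiLC region of 2525 bp (chr7:24878277-24880801) contained the mESC region of 991 bp (chr7:24879183-24880173). Altogether 53 members had a tied region in either table and 7 in both, 13 had a covered TSS with no tied region, and 11 had neither. These combined counts were not made for other protein-coding genes, so they cannot be called particular to members.

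Promoter windows of 300 bases (250 before and 50 after the RefSeq start) were found for 58 of the 77 members and for 17539 other protein-coding genes. The members without a matched window included Rpl3, Rpl7, Rpl8, Rpl17, Rpl21, Rpl23a, Rpl29, Rpl30, Rpl32, Rpl36, Rps14, Rps20, Rps27a and Rps29. Motifs were counted on both strands. The ETS letters CCGGAAG, which GABPA and related factors bind, were in 22 member windows (37.9%) and in 11.8% of other windows. Among the genes printed above, the windows of Rpl11, Rpl15, Rpl19, Rpl35, Rps10 and Rps21 held them, those of Rpl15 and Rpl35 outside the bases shown. The palindrome CTCGCGAG was in 6 (10.3% against 1.27%): Rpl12, Rpl26, Rpl27a, Rps6, Rps19 and Rps28. The YY1 letters AAGATGG were in 9 (15.5% against 6.35%) and the NRF1 letters TGCGCA in 11 (19.0% against 10.0%).

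The shares of core promoter letters lay on either side of those of the other genes. The TATA letters TATAAA were in 6 member windows (10.3% against 13.3%), CCAAT in 29.3% (against 39.0%), GGGCGG in 55.2% (against 46.2%) and the E-box CACGTG in 8.62% (against 7.87%). Median GC content was 56.5% in members and 56.3% in the others, and the median count of CpG dinucleotides was 21 and 13. Runs of at least 8 pyrimidines touching the 5 bases on either side of the RefSeq start were found in 20 members (34.5%). The share was 9.48% in other genes. Such a run need not include the first transcribed base: that of Rpl4 lay 18 to 5 bases before it. The first base was C in 19 members (32.8%), against 13.7% of other genes. The longest runs were those of Rpl7a (21 bases), Rpl27a (20), Rpl35 (18) and Rpl15 (17). Covered and uncovered members differed by few windows: a run of at least 8 bases was found in 15 of 48 covered (31.2%) and 5 of 10 uncovered members (50.0%), and the ETS letters in 19 of 48 (39.6%) and 3 of 10 (30.0%). The run depends on where RefSeq places the start: the window lay on the TSS of the gene table for 49 of the 58 members and at most 64 bp from it.

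**Figure D4:**
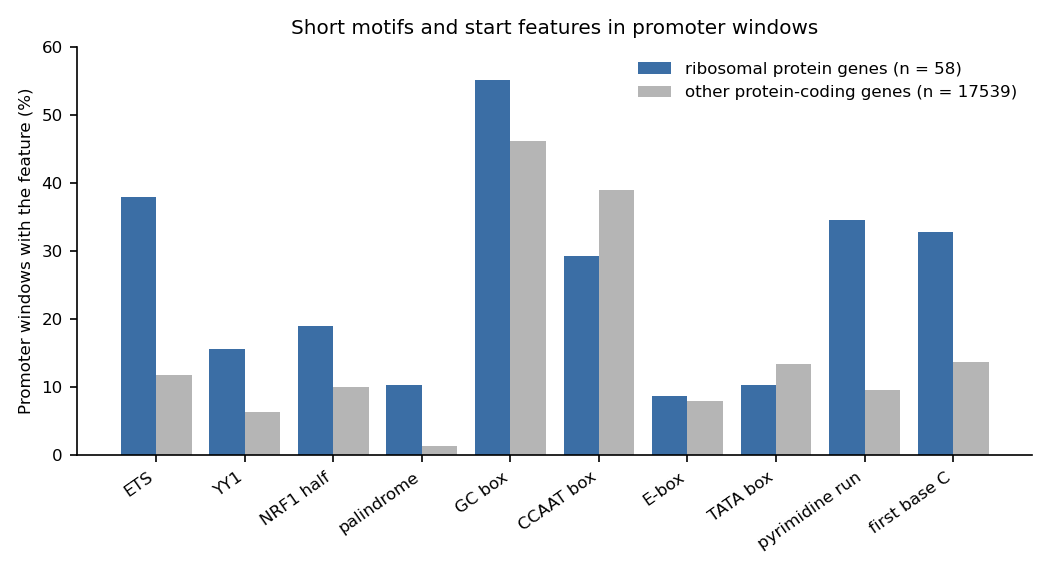
Percentage of promoter windows that hold each short motif, on either strand, or start feature in 58 ribosomal protein genes and 17539 other protein-coding genes. ETS letters (37.9% and 11.8%), the pyrimidine run (34.5% and 9.48%) and a first base C (32.8% and 13.7%) show the wider gaps, and the TATA box and E-box the smaller ones.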

How the data were processed

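The deposited tables are lists of regions with a chromosome, start, end and strand (mm10), with no unit other than base pairs and no value per library. Per the series' design text, the authors took the mESC and EpiLC enhancers from earlier publications of other groups and lifted them over to mm10, and the gene intervals from their own earlier work. Tools listed in the submitters' processing notes were bedtools 2.29.2, Bowtie2 2.3.4.1 and Trimmomatic 0.38, without roles. Neither the liftover tool nor the merging of transcripts is given in the sources used here.

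Gene intervals were named by RefSeq or GENCODE M21 (49 member rows by an exact RefSeq gene, 4 by a GENCODE transcript, 28 by a shared length of at least 0.8). Starts were read as counting from 0 and are printed counting from 1. For a gene with several intervals, the best-matched and then the longest was used. Each region was assigned to the TSS closest to its centre, provided its edge lay within 50 kb. Overlaps needed 1 bp. The main counts of members are given beside the same count over all protein-coding genes. No test was run, since fixed lists have no replicates.

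The members, the comparison lists and the motifs were chosen with earlier results of these data known. Genes were named by rule: members with an mESC or distal region, those with the widest or narrowest promoter-centred regions or the most regions, the longest and shortest, and neighbouring members. Further members named, among them the widest and narrowest regions over a TSS and the uncovered genes, were chosen after their values were seen. Promoter sequences were taken from RefSeq (GRCm38.p6) and, for enhancer windows, from the GRCm38.p6 genome. Alternatives covered the distance limits, the source of TSSs, paralogs, the counting of starts and the overlap needed. Some results for a few members and regions are not reported here. Scripts used Python 3.11.15, pandas 2.3.3, numpy 2.4.6, scipy 1.17.1 and pysam 0.24.0 and were tested on simulated intervals.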

Additional observations from a re-analysis of the deposited data

How the results depend on the processing

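Of 34 alternatives to 9 counts and values, 26 stayed within 1.5 times the reported value and 8 did not. Apart from the overlap setting below, the cause was not tested. The count of members with a promoter-centred EpiLC region (24) fell to 8 with the centre within 500 bp and was 40 within 2 kb, 42 with GENCODE transcript starts and 62 where covering the TSS sufficed. Members with a tied mESC region (8) numbered 29 when a region was given to every gene within 50 kb and 5 with GENCODE transcript starts. Apart from TSS cover, the matching shares of all protein-coding genes were not computed for these settings. Whether the differences from that background hold under them is therefore not known. With at least 50% of both regions shared, the counts of overlapping tied EpiLC regions (3) and tied mESC regions (3) both became 0. The widths alone fixed this outcome. EpiLC and mESC widths were 2525 and 991 bp at Rps19, 3825 and 734 bp at Rps23, and 3225 and 6996 bp at Rps27a. In each pair the narrower region was less than 50% as wide as the other. The count of members with a covered TSS (62) was 63 with starts counted from 1 or with any coding GENCODE start. Without the paralogs it was 60 of 72 (83.3%, against 80.5% of all 77). The count of members wholly inside EpiLC regions (36) reached 42 when 90% of the interval sufficed. These settings for covered TSSs and whole intervals, and the use of protein-coding intervals alone, were chosen after seeing the data. No paired analysis was possible because the tables hold no value per library. The counts carry no sampling error, and a region's absence reflects the thresholds of the earlier publications, not given in the sources used here.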

Other observations

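The EpiLC table is not in genome order, and its order is not explained in the sources used here. The regions over ribosomal protein gene TSSs stood early in it: 23 of the 61 distinct regions were in rows 1 to 1000, 21 in rows 1001 to 2000, 13 in rows 2001 to 4000, 4 in rows 4001 to 8000 and 0 beyond. By member, 59 of 62 (95.2%) lay in the first 4144 rows, as did 76.8% of the regions over other covered protein-coding genes and 95.0% of those over mitochondrial ribosomal protein genes. The earliest were those of Rpl19 (row 166), Rpl24 (row 217), Rpl3 (row 235) and Rpl7 (row 266), and the latest that of Rpl39l (row 5906). Row number and width had a Spearman's rho of -0.35 over the table, given as a description.

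The pseudogenes named after members showed little of the overlap seen at the members themselves. Of 306 such pseudogenes in RefSeq, 1 (0.327%) overlapped an EpiLC region and 1 (0.327%) an mESC region, against 2.17% and 0.78% of all 10511 RefSeq pseudogenes.

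Of the start values of EpiLC regions, 98.2% leave a remainder of 1 on division by 25, and 16028 of 16576 widths are multiples of 25. The mESC table has that remainder in 3.73% of its rows. Extents of EpiLC regions around ribosomal protein genes therefore come in steps of 25 bp for most regions, and the gap of 1 bp at Rpl31 is smaller than such a step.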
